A study of Homo sapiens with 6 samples.

Results

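The genes described here are those of the G1/S transition and of DNA replication, a list of 37 genes, of which 36 were found among the 20345 genes of the processed table by their HGNC symbol. UHRF1 was not analysed here. RNA had been sequenced from SW 1990, an established human pancreatic cancer cell line, in 2 groups of 3 libraries. LRRC8A shRNA cells carried an shRNA directed at LRRC8A, the essential subunit of the volume-regulated anion channel. Control shRNA cells carried a non-targeting shRNA. Both shRNAs were in the lentiviral vector pLKO.1, cells of both groups had passed puromycin selection to give stable lines, and the labels name 1 LRRC8A shRNA and 1 batch. The series calls the 3 libraries of a group biological replicates, but nothing says that they came from separate transductions, so p-values measure the spread between these libraries.

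Before a cell copies its genome it loads the MCM2 to MCM7 helicase onto replication origins, a step called licensing that needs the origin recognition complex, CDC6 and CDT1. Cyclin E kinase and the E2F transcription factors then carry the cell over the G1/S boundary: E2F1 and its relatives activate most of the genes described here, CDC45 and the GINS complex switch the helicase on, and polymerases, clamp and ligase copy the strands. In tumour cells these mRNAs are commonly used as a proliferation readout, because they are high in cycling cells and low in resting ones. In a bulk library a smaller share of cells in S phase and less of an mRNA in each cell cannot be told apart.

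Libraries held 37295187 to 42937612 counts in LRRC8A shRNA cells and 37052641 to 37565017 in control shRNA cells. LRRC8A mRNA checked the labels: it stood at 40.8, 37.7 and 41.6 CPM (the gene's count relative to the TMM-adjusted library total) in LRRC8A shRNA replicates 1 to 3, against 81.2, 73.8 and 71.7 CPM in control shRNA replicates 1 to 3. The log2 fold change was -0.92 (SE 0.06, edgeR adjusted p = 1.46e-08), and an exact two-sided permutation test reached p = 0.1, its lowest possible value at 3 libraries per group. All 8 markers of ductal epithelium reached 1 TPM (a level per transcript length), as did 0 of 4 leukocyte, 1 of 4 fibroblast, 0 of 2 endothelial, 1 of 3 acinar and 0 of 2 endocrine markers. The summed epithelial markers lay at 11780 to 12997 TPM in LRRC8A shRNA libraries and 14557 to 15443 TPM in control shRNA libraries. Most of that sum was KRT8 and KRT18, at 6741 and 5217 TPM over the 6 libraries, while KRT7 and MUC1 stood at only 2.67 and 6.17 TPM. The summed acinar markers lay at 22.7 to 32.9 TPM in LRRC8A shRNA libraries and 34.9 to 41.9 TPM in control shRNA libraries. Neither sum overlapped between the groups. Nearly all of the acinar sum was PRSS1, with AMY2A at 0 and CPA1 at 0.0154 TPM over the 6 libraries. The part of either sum in the results below was not tested.

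Of the 36 genes, 1 rose in LRRC8A shRNA cells, 0 fell and 35 did not pass the test. A gene passed when its Benjamini-Hochberg adjusted p from edgeR's quasi-likelihood test, fitted on 13551 genes, was under 0.05, which 4.35% of all tested genes did, 1.77% as higher and 2.58% as lower. The gene that rose was MCM6, a helicase subunit. The share called, 1 of 36, is near that background. All 36 genes passed the filter on low counts, with between 307 and 18085 counts per library. The median log2 fold change was 0.00 over the 36 genes and 0.00 over all tested genes, and 18 of the 36 were above 0, beside 50.2% of all tested genes.

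**Figure D1:**
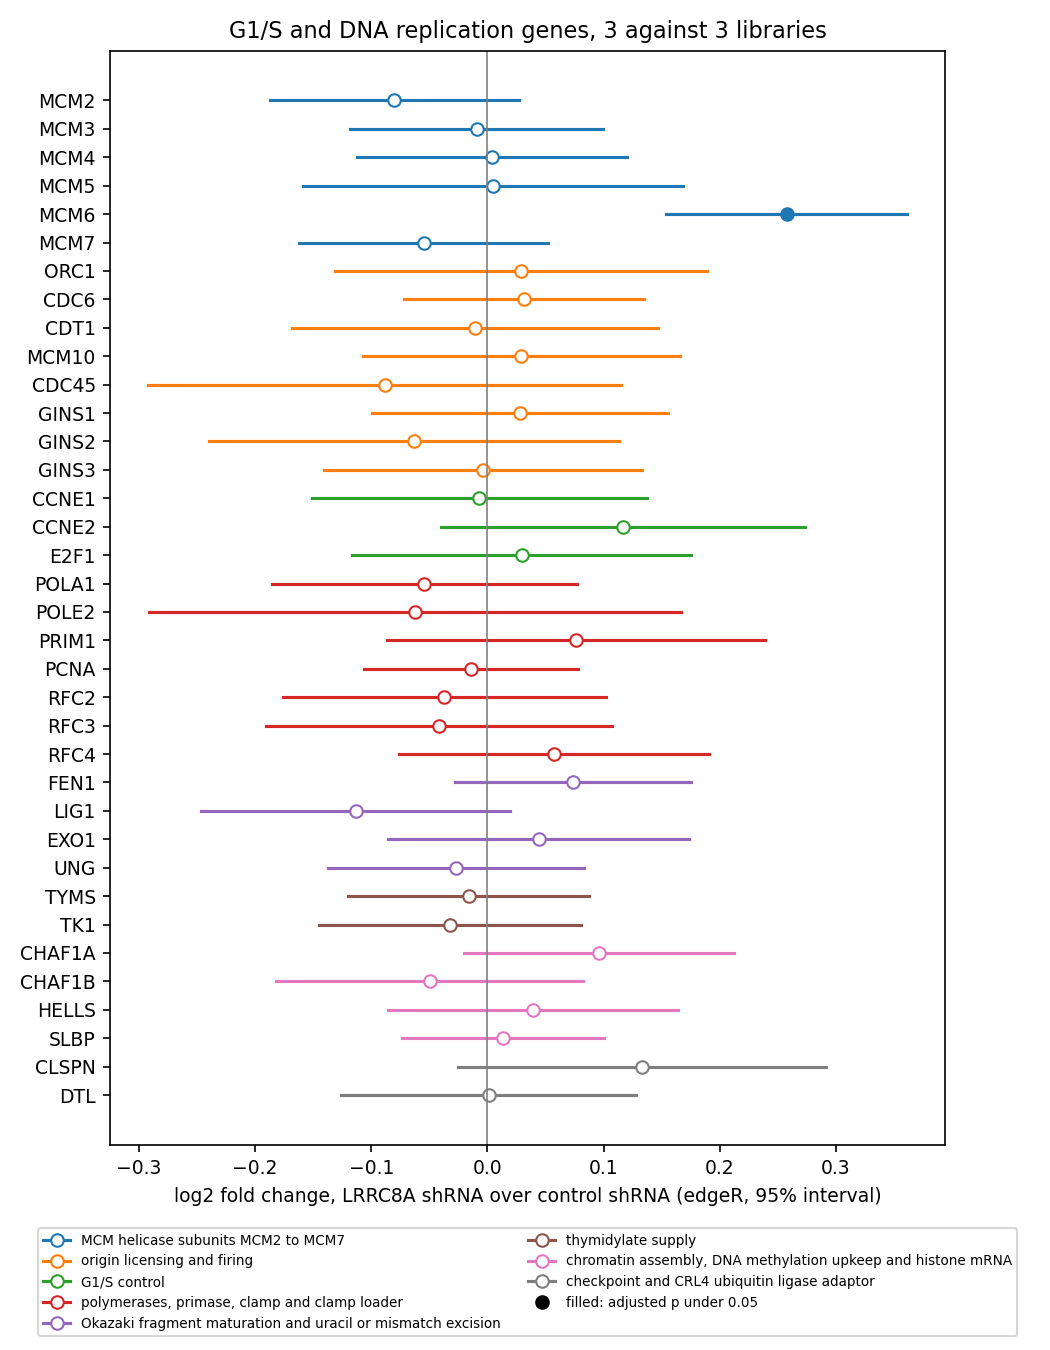
Log2 fold change of each of the 36 genes, LRRC8A shRNA over control shRNA (x axis), with its 95% interval from edgeR, 3 libraries per group, coloured by role and with a filled point where the adjusted p is under 0.05. MCM6 stands at 0.26 with an interval of 0.15 to 0.36, and the intervals of the other 35 genes all include 0.

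MCM6 had 158.7, 157.2 and 163.9 CPM in LRRC8A shRNA replicates 1 to 3, against 127.4, 144.5 and 129.4 CPM in control shRNA replicates 1 to 3. Every LRRC8A shRNA library lay above every control library, which holds for 11.4% of all tested genes. The level was 1.20-fold that of control shRNA cells, with a 95% interval of 1.11 to 1.28 (log2 fold change 0.26, SE 0.05, edgeR adjusted p = 0.00479). At an adjusted p under 0.01, which 1.64% of all tested genes reached, it was likewise the 1 gene of the 36. Per transcript length, MCM6 reached 83.1 ± 1.04 TPM in LRRC8A shRNA cells and 68.9 ± 4.99 TPM in control shRNA cells (SD, n = 3 each). In GRCh38 the gene (ENSG00000076003) lies on chromosome 2, 135839626 to 135876426, on the minus strand, and GENCODE 29 annotates no other gene over it. Without control shRNA replicate 1 the edgeR adjusted p was 0.0550, so the call was lost, at a log2 fold change of 0.22. Over all genes 273 were called in that fit, against 590 with all 6 libraries. The MCM6 adjusted p-values without each other library were 0.00273 to 0.0313.

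The other 5 subunits of the same helicase did not pass. MCM2 had 120.8, 126.7 and 129.5 CPM in LRRC8A shRNA replicates 1 to 3, against 127.4, 143.6 and 127.5 CPM in control shRNA replicates 1 to 3, and the groups overlapped. The log2 fold changes were -0.08 for MCM2 (95% interval -0.19 to 0.03), -0.01 for MCM3 (-0.12 to 0.10), 0.00 for MCM4 (-0.11 to 0.12), 0.00 for MCM5 (-0.16 to 0.17) and -0.05 for MCM7 (-0.16 to 0.05). Their edgeR adjusted p-values lay between 0.438 for MCM2 and 0.985 for MCM5. AP4M1 overlaps MCM7 on the opposite strand, and TPRA1 overlaps MCM2, so some of their reads could belong to those genes.

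Each subunit was also set against its partners in the same library, which removes what all subunits share there. MCM6 divided by the geometric mean of the other 5 subunits (both in TPM) was 0.746, 0.735 and 0.739 in LRRC8A shRNA replicates 1 to 3, against 0.607, 0.602 and 0.628 in control shRNA replicates 1 to 3. The ratio averaged 0.740 ± 0.00554 in LRRC8A shRNA cells and 0.612 ± 0.0133 in control shRNA cells (SD, n = 3 each), with a smaller spread between libraries than MCM6 itself had. MCM2 divided by the 4 partners other than MCM6 was lower in each LRRC8A shRNA library, at 0.546 ± 0.0184 against 0.571 ± 0.0102 in control shRNA cells. The groups nearly touched, at 0.562 in LRRC8A shRNA replicate 2 and 0.566 in control shRNA replicate 2. How often such ratios lie apart was not computed, and MCM2 itself did not pass. The same ratios overlapped between groups for MCM3, MCM4, MCM5 and MCM7. MCM6 was looked at here because it had passed the test, so its ratio describes the same difference and is no second test.

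**Figure D2:**
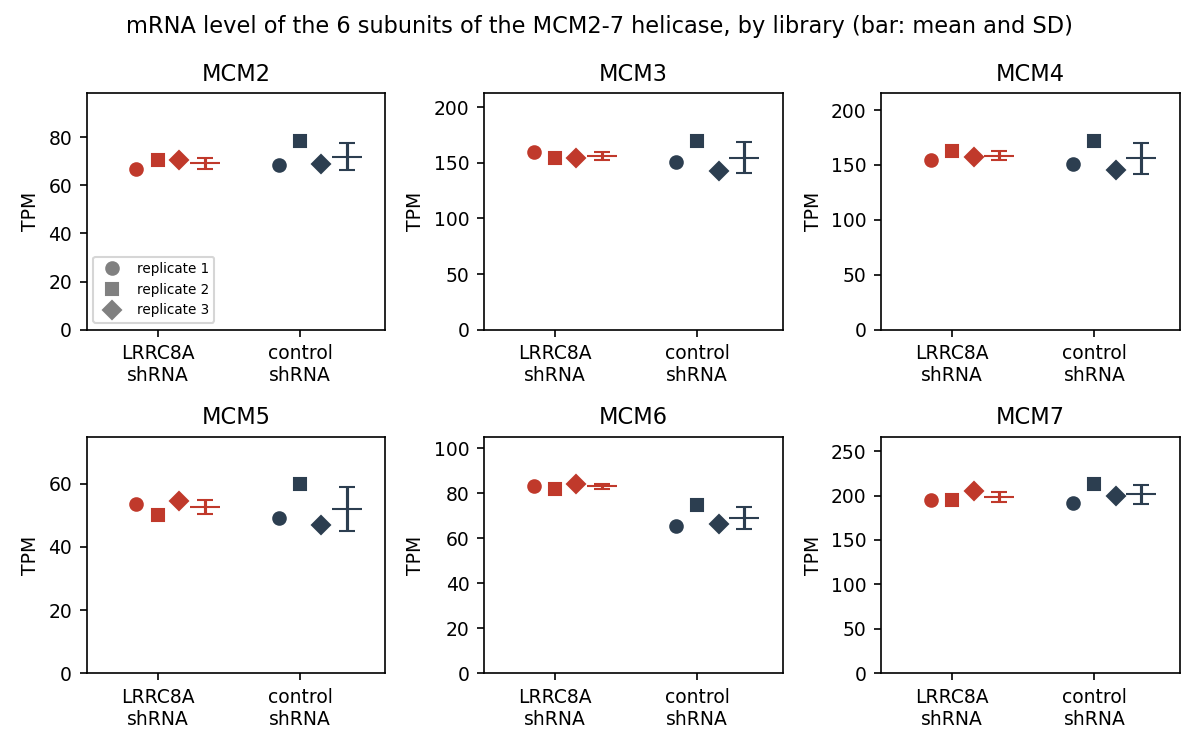
TPM of the 6 helicase subunits (y axis, from 0) in each library, LRRC8A shRNA at left and control shRNA at right, with marker shapes for replicate numbers and bars for mean and SD (n = 3). For MCM6 the LRRC8A shRNA points (82.0 to 84.1 TPM) lie above the control points (65.6 to 74.7 TPM), and for the other 5 subunits the groups overlap, with control replicate 2 the highest control each time.

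The subunits differ in mRNA level although they assemble one to one. In control shRNA cells MCM7 was highest at 201 ± 10.8 TPM, MCM4 and MCM3 stood at 156 ± 14.1 and 154 ± 13.8 TPM without a gap between their libraries, MCM2 and MCM6 at 71.9 ± 5.72 and 68.9 ± 4.99 TPM also overlapped, and MCM5 was lowest at 52.0 ± 6.95 TPM (SD, n = 3). In LRRC8A shRNA cells MCM6, at 82.0 to 84.1 TPM, lay above MCM2, at 66.7 to 70.4 TPM, without overlap. Over all 36 genes the mean level in control shRNA cells ran from 13.1 TPM (POLA1) to 521 TPM (TYMS) with a median of 35.3 TPM. TYMS, PCNA and MCM7 stood at the top, and 25 of the 35 neighbours in that order overlapped between libraries. Among all 36 genes by mean TPM, MCM6 held place 9 in LRRC8A shRNA cells and place 11 in control shRNA cells.

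Many of the promoters, but not all, hold words of the E2F factors. E2F factors bind words of the form TTTCCCGC, TTTCGCGC, TTTGCCGC or TTTGGCGC, which were searched on both strands in windows from 250 bases before to 50 after each start (RefSeq, GRCh38.p14). Such a word was found in 20 of the 33 windows matched by symbol (60.6%), beside 5.21% of the 10785 windows of all tested genes. E2F factors are known to activate most genes of this list, as said above, so the higher share is no separate finding. Of the 36 genes, MCM4, MCM5 and CCNE2 were not matched. On opposite strands the words can overlap, as in the 12 letters TTTGGCGCGAAA, and then count as 2. MCM6 shares the word TTTCGCGC with MCM2, MCM3 and MCM7, and its other word, TTTGGCGC, was in none of their windows. MCM3 and MCM7 also hold TTTCCCGC, at -174 and -187 from the start, outside the segments printed here. The part of these words in the MCM6 level was not tested. Segments of 100 bases are printed for the helicase genes with a word and for E2F1, on each gene's own strand, with the words in capitals:
MCM6 (chr2:135876509-135876608, minus strand): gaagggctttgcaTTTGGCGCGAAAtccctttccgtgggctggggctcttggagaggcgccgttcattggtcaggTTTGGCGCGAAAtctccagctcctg
MCM2 (chr3:127598361-127598460, plus strand): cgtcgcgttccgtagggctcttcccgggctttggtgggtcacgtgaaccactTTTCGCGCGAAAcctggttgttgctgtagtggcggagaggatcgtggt
MCM3 (chr6:52284693-52284792, minus strand): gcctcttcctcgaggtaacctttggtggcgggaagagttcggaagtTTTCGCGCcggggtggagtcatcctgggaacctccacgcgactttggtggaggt
MCM7 (chr7:100101353-100101452, minus strand): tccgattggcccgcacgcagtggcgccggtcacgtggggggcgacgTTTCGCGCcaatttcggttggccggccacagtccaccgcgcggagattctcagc
E2F1 (chr20:33686359-33686458, minus strand): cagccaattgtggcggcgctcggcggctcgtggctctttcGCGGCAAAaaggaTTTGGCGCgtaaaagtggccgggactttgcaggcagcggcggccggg

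MCM6 carries the double word TTTGGCGCGAAA at both ends of its segment, and MCM2 a single related one just after its start. The 20 genes with a word had a median log2 fold change of -0.01 and the 13 without one of 0.01. A word is a match of letters, not a measured binding site.

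MCM6 was also the 1 gene of the 36 (2.78%) whose 3′ UTR in GENCODE 29 holds the word GTGTCAC, beside 10.5% of the 13072 tested genes with a 3′ UTR. That word had been picked in earlier work on these data for being frequent among genes that rose; it was in 32.2% of the 236 higher genes and 10.1% of the 12492 genes that did not pass. The site begins at base 154 of the 1209 bases of the MCM6 3′ UTR and is shown with its flanks, the word in capitals:
MCM6 3′ UTR (GRCh38, chr2:135840663-135840692, minus strand): gatggtcctatGTGTCACattcatcacagg

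The part of this word in the higher MCM6 level was not tested.

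Origin licensing and firing showed no called gene among 8. CDC6, which loads the helicase together with CDT1, had 122.0, 121.5 and 127.8 CPM in LRRC8A shRNA replicates 1 to 3, against 121.0, 128.6 and 113.8 CPM in control shRNA replicates 1 to 3. CDT1 stood at 30.8 ± 1.96 CPM in LRRC8A shRNA cells and 31.0 ± 3.16 CPM in control shRNA cells (SD, n = 3 each). Both genes overlapped between the groups, with log2 fold changes of 0.03 (95% interval -0.07 to 0.13) and -0.01 (-0.17 to 0.15). ORC1, the cycling subunit of the origin recognition complex, MCM10, which helps the helicase start, and GINS1 each had a log2 fold change of 0.03. The others were CDC45 at -0.09 (-0.29 to 0.12), GINS2 at -0.06 and GINS3 at 0.00, all parts of the active helicase, and CDC45 had the lowest bound of the 35 genes. All 8 overlapped between groups, and their edgeR adjusted p-values were 0.685 or more.

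Among the G1/S control genes, neither cyclin E gene nor E2F1 passed. E2F1, the activator whose words are printed above, had 35.6, 36.1 and 38.7 CPM in LRRC8A shRNA replicates 1 to 3, against 36.4, 39.3 and 32.6 CPM in control shRNA replicates 1 to 3. The values overlapped, and the log2 fold change was 0.03 (95% interval -0.12 to 0.18, edgeR adjusted p = 0.876). CCNE1, the first of the cyclins that activate CDK2, had a log2 fold change of -0.01 (-0.15 to 0.14). CCNE2, its close relative, was at 0.12 (-0.04 to 0.27, edgeR adjusted p = 0.437). The choice of scale matters for CCNE2: its TPM values were 24.8, 26.3 and 24.7 in LRRC8A shRNA replicates 1 to 3, against 23.4, 23.1 and 18.5 in control shRNA replicates 1 to 3, and did not overlap, while its CPM values did. INTS8 and NDUFAF6 overlap CCNE2 on the opposite strand.

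The 7 genes of the copying machinery stayed close to 0 on the log2 scale, between -0.06 and 0.08, and none passed. PCNA, the sliding clamp that holds polymerases on DNA, had 299.1, 313.2 and 304.9 CPM in LRRC8A shRNA replicates 1 to 3, against 307.1, 325.7 and 293.5 CPM in control shRNA replicates 1 to 3. Its log2 fold change of -0.01 had an interval of -0.11 to 0.08. The primase subunit gene PRIM1 was at 0.08 and the primase-bound polymerase gene POLA1 at -0.05. The clamp loader genes RFC2, RFC3 and RFC4 were at -0.04, -0.04 and 0.06. POLE2, a subunit of the leading-strand polymerase, was at -0.06 and had the largest SE of the 36 genes, 0.11, at 9.45 ± 1.11 CPM in LRRC8A shRNA cells and 9.87 ± 0.564 CPM in control shRNA cells (SD, n = 3 each).

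None of the genes that finish and repair the new strand passed. LIG1, the ligase that seals Okazaki fragments, had 49.4, 49.4 and 58.7 CPM in LRRC8A shRNA replicates 1 to 3, against 56.7, 58.0 and 55.6 CPM in control shRNA replicates 1 to 3. Replicate 3 of the LRRC8A shRNA cells was above all controls and the other two were below them, so the groups overlapped (log2 fold change -0.11, 95% interval -0.25 to 0.02, edgeR adjusted p = 0.362). FEN1, the nuclease that trims Okazaki fragments, was at 0.07 (-0.03 to 0.18), EXO1, a mismatch repair exonuclease, at 0.04, and UNG, which removes uracil, at -0.03. The thymidylate supply genes did not pass either. TYMS, the thymidylate synthase that fluorouracil targets, was the most abundant of the 36 genes, at 521 ± 21.4 TPM in LRRC8A shRNA cells and 521 ± 36.8 TPM in control shRNA cells (SD, n = 3 each; log2 fold change -0.02, 95% interval -0.12 to 0.09). TK1, the S-phase thymidine kinase, was at -0.03. TYMS overlaps ENOSF1 and TYMSOS on the opposite strand.

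None of the genes that rebuild chromatin behind the fork, nor CLSPN and DTL of the checkpoint and of CDT1 control, passed the test. CLSPN, the adaptor through which ATR activates CHK1, had 69.3, 63.3 and 79.7 CPM in LRRC8A shRNA replicates 1 to 3, against 63.0, 67.6 and 62.9 CPM in control shRNA replicates 1 to 3. LRRC8A shRNA replicate 2 lay among the controls and replicate 3 far above them, and the log2 fold change of 0.13 had the highest upper bound of the 35 genes, 0.29 (edgeR adjusted p = 0.368). CHAF1A, the large subunit of the histone chaperone CAF-1, was at 0.10 (-0.02 to 0.21, edgeR adjusted p = 0.379), while its partner CHAF1B was at -0.05 (-0.18 to 0.08). HELLS, a chromatin remodeller needed for DNA methylation, was at 0.04, and DTL, which directs CDT1 to destruction in S phase, at 0.00. SLBP, which binds the stem-loop of histone mRNAs, was the most precisely measured gene with an SE of 0.04 and a log2 fold change of 0.01 (-0.07 to 0.10).

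For the 35 genes that did not pass, the log2 fold changes ran from -0.11 (LIG1) to 0.13 (CLSPN), and 32 of them were smaller than 0.1 in size. Their CPM values overlapped between the groups in all 35 cases. Over all 36 genes, MCM6 included, 2.78% had groups apart in CPM, beside 23.6% of all tested genes. In TPM, the groups were apart among these 35 for CCNE2, as given above, and for CLSPN. CLSPN lay at 34.5 to 40.2 TPM in LRRC8A shRNA cells and 32.7 to 33.8 TPM in control shRNA cells. The share of all tested genes apart in TPM was not computed, so whether either gene stands out by this measure cannot be said. The outermost bounds of the 35 intervals were 0.817-fold (CDC45) and 1.22-fold (CLSPN), so changes beyond those sizes lie outside the interval of each gene, and a change of a single gene within its own interval could not be told from 0 with these libraries. At an unadjusted p of 0.05, MCM6 remained the 1 gene of the 36 that passed, where 18.3% of all tested genes did, 8.65% as higher and 9.62% as lower.

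The values of these genes moved together between libraries of the same group. In 34 of the 36 genes (94.4%) control replicate 2 was the highest of the 3 control libraries, which was so in 33.6% of all tested genes, and in 23 genes (63.9%, beside 16.3%) it was the highest of all 6 libraries. Among the LRRC8A shRNA libraries, replicate 3 was highest in 24 of the 36 genes (66.7%), against 34.1% of all tested genes. The order within groups was not particular to this list. Among 30 G2/M and mitosis genes, taken up below, control replicate 2 was the highest control in 21 (70.0%). LRRC8A shRNA replicate 3 was the highest of its group in 17 of those 30 (56.7%). Control replicate 2 was the highest of all 6 libraries in 0 of the 30. The mean deviation of log2 CPM from each gene's own mean was -0.02, -0.03 and 0.06 in LRRC8A shRNA replicates 1 to 3, and -0.04, 0.09 and -0.07 in control shRNA replicates 1 to 3, so the groups overlapped with a control library at each end. Control replicate 2 also had the highest mean deviation of the 3 controls in every role among the 36 genes. Examples are the helicase subunits (0.12), the licensing and firing genes (0.12) and the copying machinery (0.08). The same held in each of the other lists of replication and cell cycle genes below. The share of mitochondrially encoded mRNA was 5.00%, 4.55% and 6.53% in LRRC8A shRNA replicates 1 to 3, and 5.25%, 4.78% and 5.53% in control shRNA replicates 1 to 3; its part in this pattern was not tested. Genes of 1 library share its culture, so these counts describe libraries and are not 36 separate observations.

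Single libraries decided on which side of 0 the list fell. Without control replicate 2, 29 of the 36 genes were above 0 with a median log2 fold change of 0.05, and without control replicate 3, 11 of 36 were above 0 with a median of -0.03. MCM6 stayed above 0 in each fit that left out 1 library.

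**Figure D3:**
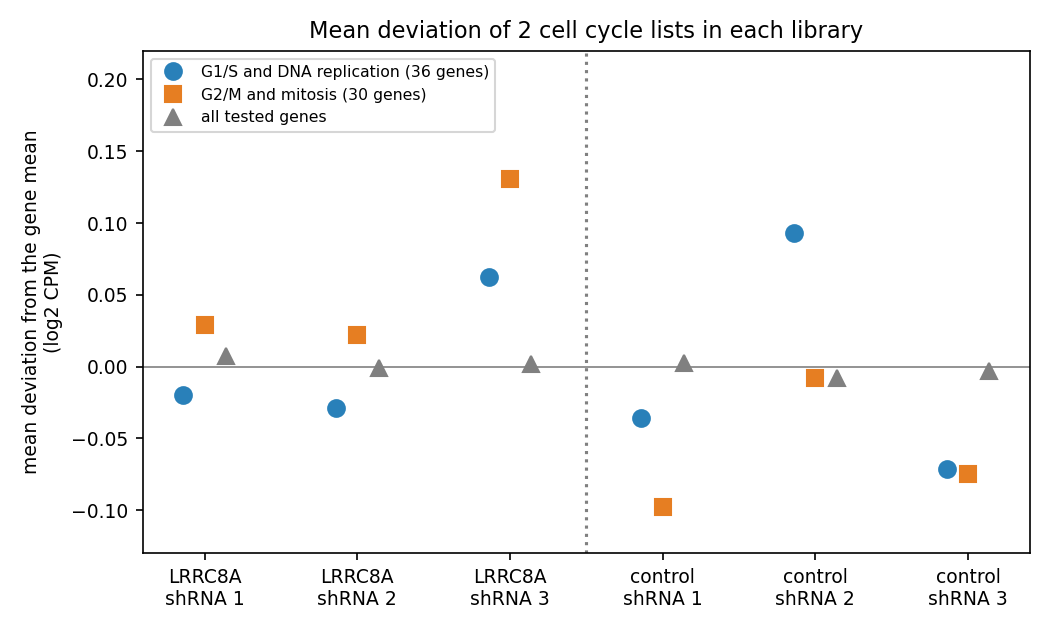
Mean deviation of log2 CPM from each gene's mean over the 6 libraries (y axis) for the 36 G1/S and replication genes, 30 G2/M and mitosis genes and all tested genes, in each library, LRRC8A shRNA at left. The G1/S genes reach 0.09 in control replicate 2 and -0.07 in control replicate 3, and the G2/M genes are above 0 in the 3 LRRC8A shRNA libraries and below 0 in the 3 control libraries.

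On a list of 30 G2/M and mitotic genes, 5 rose and none fell (0 called lower), beside 1.77% and 2.58% of all tested genes. Of the 30, 29 were above 0, beside 50.2% of all tested genes, and the median log2 fold change was 0.13. The direction of such genes was already known from earlier work on these data. UBE2C, the ubiquitin-conjugating enzyme of the anaphase-promoting complex, rose to 78.3 ± 1.22 CPM in LRRC8A shRNA cells, against 66.3 ± 2.36 CPM in control shRNA cells (SD, n = 3 each; log2 fold change 0.24, edgeR adjusted p = 0.00599). The spindle genes TACC3, PRC1 and TPX2 rose by 0.22, 0.19 and 0.18 on the log2 scale, and the cytokinesis gene ANLN by 0.20 (edgeR adjusted p-values 0.0149, 0.0189, 0.0484 and 0.0172). The mean deviation of the 30 genes was 0.03, 0.02 and 0.13 in LRRC8A shRNA replicates 1 to 3, and -0.10, -0.01 and -0.07 in control shRNA replicates 1 to 3, without overlap. Here too the genes of 1 library share its culture, so the counts are not 30 separate observations. The number called was 1 without LRRC8A shRNA replicate 3, 1 without control replicate 1 and 2 without control replicate 3, and of the 5 genes UBE2C passed in all 6 such fits. A difference between the 2 lists was not tested. KIAA0895 and PRC1-AS1 overlap ANLN and PRC1 on the opposite strand, and UBE2C has annotated pseudogenes.

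The promoters of the G1/S and replication genes and of the G2/M genes also differed in another word. The CHR element, read here as TTTGAA on both strands, marks genes of G2 and mitosis that the DREAM complex holds down in resting cells. It was in 17 of 25 windows of the G2/M genes (68.0%), in 0 of 33 windows of the G1/S and replication genes, and in 9.72% of all windows. An E2F word was in 2 of the 25 G2/M windows (8.0%). The other gene lists taken up below lay between these lists for both words. Among further G1/S regulators 24.0% of windows held an E2F word and 16.0% the CHR word. Among further replication factors these shares were 18.2% and 3.03%. The 17 G2/M genes with the CHR word had a median log2 fold change of 0.13 and the 8 without it of 0.11.

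**Figure D4:**
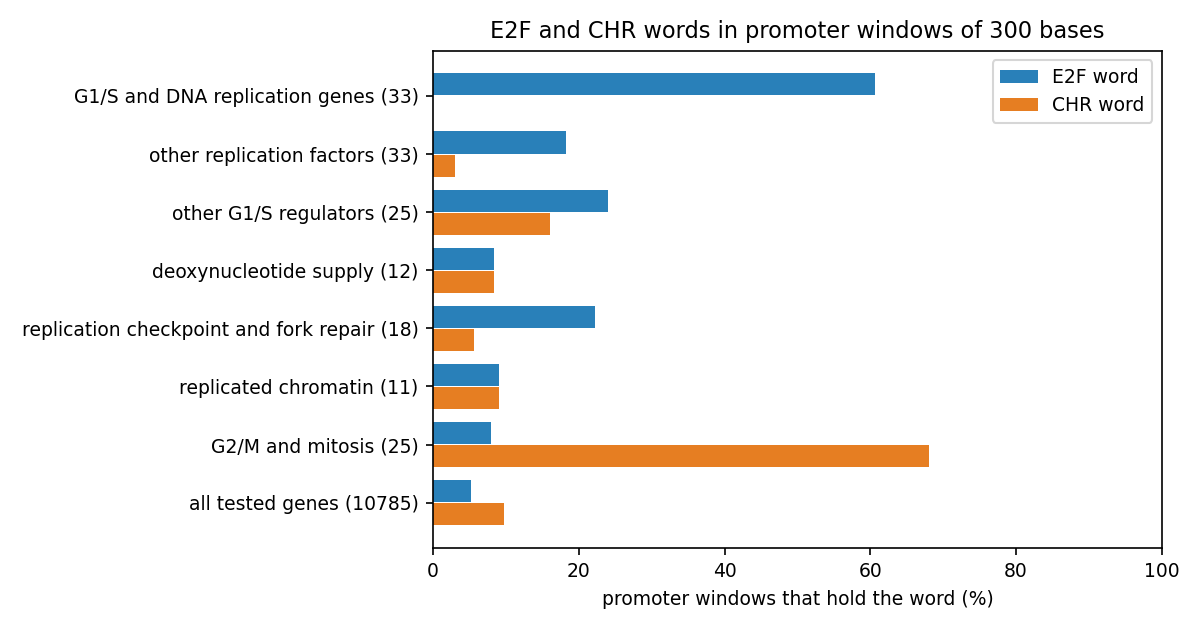
Share of promoter windows of 300 bases (x axis, percent, from 0) that hold an E2F or a CHR word, by gene list, with the number of windows in brackets. The G1/S and replication genes reach 60.6% for E2F and 0 for CHR, the G2/M genes 8.0% and 68.0%, and all tested genes 5.21% and 9.72%.

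Other genes of the same pathways were taken from lists, not for how they moved. Of 42 further replication factors 1 rose and 0 fell, with a median log2 fold change of 0.01. The gene was RNASEH2A, the catalytic subunit of the ribonuclease that removes ribonucleotides from DNA. It had 70.5, 68.9 and 67.6 CPM in LRRC8A shRNA replicates 1 to 3, against 55.0, 59.0 and 54.4 CPM in control shRNA replicates 1 to 3. Every LRRC8A shRNA library was above every control library (log2 fold change 0.30, 95% interval 0.19 to 0.40, edgeR adjusted p = 0.00199), and RNASEH2A passed in all 6 fits that left out 1 library. HOOK2 overlaps it on the opposite strand. The word GTGTCAC was in the 3′ UTR of MCM6 but in none of RNASEH2A, UBE2C, TACC3, ANLN, PRC1 and TPX2, the other named genes that rose.

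Of 28 further G1/S regulators, such as E2F and RB family genes and CDK inhibitors, none passed (0 of 28 in edgeR). At an unadjusted edgeR p of 0.05, 6 of the 28 passed, where 18.3% of all tested genes did. The smallest p-values were those of LIN52, a subunit of the DREAM complex, at 0.30 on the log2 scale (edgeR adjusted p = 0.0955) and of CKS1B, a CDK-binding protein, at 0.13 (edgeR adjusted p = 0.109). Of 15 genes of deoxynucleotide supply 1 fell and 0 rose. NME2, a nucleoside diphosphate kinase, had 437 ± 18.2 CPM in LRRC8A shRNA cells and 489 ± 13.6 CPM in control shRNA cells (SD, n = 3 each; log2 fold change -0.16, edgeR adjusted p = 0.0341). With single libraries left out it passed in 1 of 6 fits, the one without LRRC8A shRNA replicate 1, with edgeR adjusted p-values of 0.0549 to 0.159 in the others. NME2 is closely related to its neighbour NME1, at -0.15 (named after its value was seen), and shares a read-through transcript with it, so its counts are uncertain.

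Of 24 genes of the replication checkpoint and fork repair 1 fell and 0 rose. ATR, the kinase that senses stalled forks and acts on CHK1 through CLSPN, had 52.0, 45.4 and 53.7 CPM in LRRC8A shRNA replicates 1 to 3, against 61.2, 58.1 and 59.9 CPM in control shRNA replicates 1 to 3. All LRRC8A shRNA values were below all control values (log2 fold change -0.25, 95% interval -0.37 to -0.12, edgeR adjusted p = 0.0240). The call was kept without LRRC8A shRNA replicate 3 and lost without each of the other 5 libraries (edgeR adjusted p 0.0597 to 0.126). Of 12 genes of replicated chromatin, 0 passed in edgeR and 2 had an unadjusted p under 0.05, beside 18.3% of all tested genes. They were CBX5, a heterochromatin protein gene, at 0.12 (edgeR adjusted p = 0.136) and ASF1A, a histone chaperone gene, at 0.13 (edgeR adjusted p = 0.167).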

How the data were processed

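Counts, FPKM and TPM values per gene were deposited for 6 libraries, made with a stranded mRNA kit per the labels. The submitters' processing notes name HISAT2 2.2.1, StringTie 2.2.3 and fastp 0.23.2, with GRCh38 and mm10 as builds of no stated role. The sources used here give neither the program that counted reads nor whether it used strand, and reads of genes that overlap antisense may be mixed. Besides the pairs named above, this holds for RFC4 and EIF4A2, among others. On the same strand NACA overlaps PRIM1, FADS2 overlaps FEN1, MORC3 overlaps CHAF1B and TBC1D12 overlaps HELLS. PCNA, RFC3, FEN1, UNG and TYMS have annotated pseudogenes. The counts of these genes are less certain for it. Counts were deposited as raw whole numbers. The deposited FPKM and TPM values had been scaled by the authors for length and depth. The table's own gene positions equalled those of GENCODE 29 for 100 of 19511 genes, so positions come from GENCODE 29 or RefSeq.

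In R 4.3.3, edgeR 4.0.16 filtered the counts (filterByExpr), scaled them (TMM) and ran its robust quasi-likelihood F-test. Two-sided p-values of 13551 genes were adjusted by Benjamini and Hochberg's method. SE is the fold change divided by the root of F, and intervals are 95%. Library deviations used log2 CPM with a prior count of 2. The same results were computed with the replicate number as a block, with single libraries left out, with DESeq2 size factors, with DESeq2 1.42.0, with no filter, at an adjusted p of 0.01 and with limma 3.58.1 on log2(FPKM + 1). That limma fit took genes of at least 1 FPKM in 3 libraries, and its pseudocount (0.1) and filter were varied. The genes named are the 36, the called genes of each other list (or the 2 with the smallest p) and LRRC8A. The genes and lists were chosen with earlier results of these data known.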

Additional observations from a re-analysis of the deposited data

How the results depend on the processing

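The 35 genes that missed the threshold missed it in all 14 alternatives. In 1 of these, an adjusted p of 0.01 in the same fit, no other outcome was possible. The largest log2 fold change of these genes in any alternative was 0.23 in size, and 23 of the 35 changed sign in at least 1 alternative. The number called among the 36 genes was 1 in the reported test and 0 to 1 with a library left out (0 without control shRNA replicate 1). It was 0 by limma on FPKM without a filter on low values, where MCM6 had an adjusted p of 0.117, and 1 by the other tools and settings; MCM6 itself lay between 0.22 and 0.31 on the log2 scale. Among the genes of the other lists 8 were called, 2 to 8 with a library left out, 2 by limma with either pseudocount, 0 by limma without the filter, 2 at an adjusted p of 0.01, 8 with DESeq2 size factors, and 10 both by DESeq2 and by edgeR without the filter. LRRC8A passed in each fit. With the replicate block, 1 of the 36 genes and 9 of the others were called, and MCM6 had an edgeR adjusted p of 0.00987. Same-numbered libraries deviated from their group means with correlations of 0.03, -0.09 and 0.01 across genes. Correlations between different numbers lay between -0.10 and 0.09, and 1 of the 3 LRRC8A shRNA libraries correlated best with its own number. A pairing that touched few genes would hardly move correlations taken across genes, so these values cannot decide whether equal numbers pair the libraries. Over all genes 590 were called, against 671 with the block, 246 to 504 with a library left out, 157 or 154 by limma with a pseudocount of 1 or 0.1, 18 by limma without the filter, 222 at an adjusted p of 0.01, 589 with DESeq2 size factors, 708 by DESeq2 and 692 by edgeR without the filter. Why these fits differ was not tested.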
